A study of Mus musculus with 136 samples.

Results

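The comparison described here asked whether maternal diabetes changed gene expression differently in the 2 tissues of a conceptus, its embryo and its visceral yolk sac, at the 7–9 somite stages. Its members were the concepti whose embryo had 7, 8 or 9 somite pairs, with 1 embryo library and 1 yolk sac library each and without repeat libraries. This gave 64 of the 136 libraries, from 32 of the 66 concepti. All dams were of the NOD strain, in which females become diabetic spontaneously, so the normal dams carried the same genetic background without hyperglycemia. Tissues were dissected at E8.5. In the labels, blood glucose at euthanasia was 109 to 135 mg/dl for normal and 423 to 568 mg/dl for diabetic dams, and no ages of dams were given.

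The 16 concepti of normal pregnancies came from 7 litters and the 16 of diabetic pregnancies from 6 litters, of which the litter D24M15 alone gave 7. Of the normal concepti 7 had 7 somite pairs, 4 had 8 and 5 had 9, while of the diabetic concepti 4 had 7, 9 had 8 and 3 had 9. Littermates share a dam, so the concepti are not fully independent. Libraries were made with a 3′ end kit that primes at poly(A) and marks each molecule with a unique molecular identifier (UMI). Totals lay between 1017901 and 3348745 counts per library, with a median of 2219094. Levels below are normalized counts, meaning UMI counts divided by DESeq2 size factors over the 64 libraries. They may be compared between samples, and since 1 end of each transcript is read, they do not depend on transcript length.

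The visceral yolk sac surrounds the embryo before a placenta works. Its outer layer, the visceral endoderm, takes up maternal proteins and lipids, and its inner mesoderm forms the first blood and vessels. The embryo at this stage folds its neural plate, beats its first heart tube and adds somites. Cells answer growth factors, stretch and handling by a rapid burst of immediate early genes, such as Egr1 and Fos, whose RNA turns over quickly. Histone genes of the replication-dependent class are transcribed in S phase, and most of their messages end in a stem-loop in place of a poly(A) tail. Y RNAs and small Cajal body and nucleolar RNAs are short structured RNAs that as a rule carry no poly(A) tail either.

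The interaction reported below is the log2 change from normal to diabetic pregnancies in yolk sac minus that in the embryo. A gene with a positive value was raised more, or lowered less, by maternal diabetes in the yolk sac. The test was edgeR's quasi-likelihood test with the conceptus as a block, and "called" means an adjusted p (Benjamini-Hochberg) under 0.05 over all 11577 genes tested. Of these genes 47 were called (0.406%), 27 with a positive (0.233%) and 20 with a negative interaction (0.173%). The positive group was led by the immediate early genes Egr1 and Fos, and the negative group by the Y RNA gene Rny1, by small nucleolar RNA genes and by histone genes.

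Sequences of genes that lead each group are given first, the short RNAs and histone stem-loops for how these RNAs end and the promoters for what precedes the start of immediate early genes. Rny1 (chr6:47788069-47788180, minus strand) and Scarna9 (chr9:15326264-15326333, minus strand) are shown whole, as RNA genes of GENCODE M21 on GRCm38, the build that corresponds to the mm10 assembly of the submitters' processing notes. Both are short, and Rny1 ends in a run of thymidines. For the histone genes Hist1h4n (chr13:21831767-21832196, minus strand) and Hist2h2ac (chr3:96220361-96220880, minus strand), the stem-loop near the 3′ end of the transcript is given with its stem and loop in capitals.
Rny1: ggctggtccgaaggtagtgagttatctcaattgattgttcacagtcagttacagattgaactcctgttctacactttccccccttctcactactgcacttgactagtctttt
Scarna9: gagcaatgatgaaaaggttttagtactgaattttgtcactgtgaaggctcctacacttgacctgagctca
Hist1h4n stem-loop: taaaGGCCCTTTTCAGGGCCatccaa
Hist2h2ac stem-loop: aaaaGGCTCTTTTTAGAGCCaccaaa
No hairpin of this form (a perfect stem of 6 bases opening with GG around a thymidine-rich loop of 4) was found in the annotated transcripts of Hist1h2an and Hist1h2bc, which says only that these letters do not occur there.

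The promoter of the called immediate early gene Egr1 is not reported here. For the other 3 called immediate early genes, RefSeq promoters on GRCm38.p6 are shown, each holding 250 bases before and 50 after the start. They are Fos (chr12:85473640-85473939, plus strand), Junb (chr8:84978699-84978998, minus strand) and Dusp1 (chr17:26508423-26508722, minus strand). Capitals mark TGACG on either strand, the core site bound by the CREB and ATF family, to which the called gene Atf1 belongs. The letters of TGACGTCA, its full palindrome, hold the core site on both strands.
Fos: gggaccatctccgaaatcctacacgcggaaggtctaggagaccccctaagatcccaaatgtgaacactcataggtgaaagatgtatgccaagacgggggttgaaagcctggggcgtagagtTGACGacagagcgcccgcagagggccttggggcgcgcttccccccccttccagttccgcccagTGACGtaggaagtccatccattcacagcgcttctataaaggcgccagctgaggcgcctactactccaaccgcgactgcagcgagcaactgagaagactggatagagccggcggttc
Junb: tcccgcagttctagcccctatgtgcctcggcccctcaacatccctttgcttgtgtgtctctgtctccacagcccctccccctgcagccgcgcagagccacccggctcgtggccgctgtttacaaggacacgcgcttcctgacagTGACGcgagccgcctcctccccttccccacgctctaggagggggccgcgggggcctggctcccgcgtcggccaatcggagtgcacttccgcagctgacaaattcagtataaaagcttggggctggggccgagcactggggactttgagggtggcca
Dusp1: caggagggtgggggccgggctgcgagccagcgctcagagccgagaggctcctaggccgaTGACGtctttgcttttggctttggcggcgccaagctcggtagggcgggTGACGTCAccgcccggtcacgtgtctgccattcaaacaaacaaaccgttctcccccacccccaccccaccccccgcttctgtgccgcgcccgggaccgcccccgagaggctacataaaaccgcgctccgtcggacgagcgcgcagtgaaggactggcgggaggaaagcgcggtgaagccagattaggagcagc
TGACG occurred on either strand in 6837 of 32851 mouse promoters of this length (20.8%). It was found in 8 of 14 promoters of the immediate early list (57.1%), in 8 of 24 promoters of genes with a positive interaction (33.3%) and in 4 of 11 of those with a negative one (36.4%). TGACGTCA occurred in 588 of all promoters (1.79%), and of the 3 shown in Dusp1. The CArG box, the site of serum response factor, was found on either strand in 535 promoters (1.63%), in 5 of the 14 immediate early promoters and in none of the 3 shown. A match of letters is a description and no evidence of binding.

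Before the results, the libraries were checked against their labels. The 10 markers of visceral endoderm summed to 20400 to 50600 normalized counts in yolk sacs and to 90.5 to 3160 in embryos, with none of the 10 at 0 in any group. The 10 neural markers summed to 1430 to 2840 in embryos and to 10.2 to 96.1 in yolk sacs. The labels of conceptus N28M07E give a male embryo and a female yolk sac, and the counts do the same, with 498 counts of Y-linked genes and 15 of Xist in the embryo library and 1 and 1508 in the yolk sac library. These libraries can therefore not stem from 1 conceptus. The embryo library of D24M15G, labelled male, held 386 counts of Y-linked genes together with 233 of Xist, and had the highest sum of visceral endoderm markers among embryos. Without N28M07E 22 genes were called, and without both concepti 16 genes, 8 in each direction, all of them among the 47.

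The number of calls was sensitive to single litters. Without the diabetic litter D24M15 no gene was called by edgeR, with 1735 genes at an unadjusted p under 0.05, and without the normal litter N28M07 none was called, with 1617. In both fits all 47 genes kept their direction and an unadjusted p under 0.05, and the lowest adjusted p among them was 0.0568 and 0.0557, each for Gm23639. Without D28M31, by contrast, 512 genes were called. When counts were summed per litter, no gene was called and the lowest adjusted p among the 47 was 0.146 (Scarna9), while limma with a random litter effect called 5 genes, among them Gm23639, Hist1h4n, Rny1 and Zfat. DESeq2 called 336 genes, including all 47. Titles open with a number whose meaning the labels do not give (23, 24 or 28), and it is partly tied to condition. Among the concepti with number 28, 8 diabetic and 13 normal, no gene was called, the lowest adjusted p of the 47 was 0.12 and 44 of them had an unadjusted p under 0.05. With this number by tissue as a further term 19 genes were called. Calls below are those of the fit with concepti as units, which kept the pair N28M07E. Without it the positive genes still called were Atf1, Dusp1, Egr1, Gm42640, Lrp1, Pdzrn3, Peli2, Proser1, Rimklb and Zfat. The negative genes still called were Fcf1, Gm23639, Hist1h2an, Hist1h2bc, Hist1h4n, Hist2h2ac, Nol12, Prmt1, Rny1, Rpl31-ps8, Scarna9 and Tmem245. The other called genes described below lost their call.

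To see which tissue carried the difference, each was also tested alone, with concepti as units and no term for litter. Littermates, such as the 7 concepti of D24M15, thus counted as independent, so adjusted p of single tissues may be too small. These tests were not repeated by litter or without single litters. In embryos 966 of 10628 genes were called for maternal diabetes (9.09%), 553 raised (5.2%) and 413 lowered (3.89%). In yolk sacs 2 of 10317 genes were called (0.0194%), both encoded by the mitochondrial genome, mt-Nd6 with a log2 change of 1.79 ± 0.26 (SE) and the glutamine tRNA gene mt-Tq with 2.06 ± 0.32, while 1122 genes had an unadjusted p under 0.05. Of the 27 genes with a positive interaction, 17 were called as lowered in the embryo and none in the yolk sac, and 10 were called in neither tissue alone. Of the 20 with a negative interaction, 17 were called as raised in the embryo and 3 in neither. The median log2 change of the first group was -0.48 in embryos and 0.36 in yolk sacs, and that of the second group 0.53 and -0.22. All 24 genes of the first group that were tested in both tissues had changes of opposite sign, and so had 15 of 19 genes of the second. Since an interaction is the difference of these changes, opposite signs are favored by the way the genes were chosen.

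**Figure D1:**
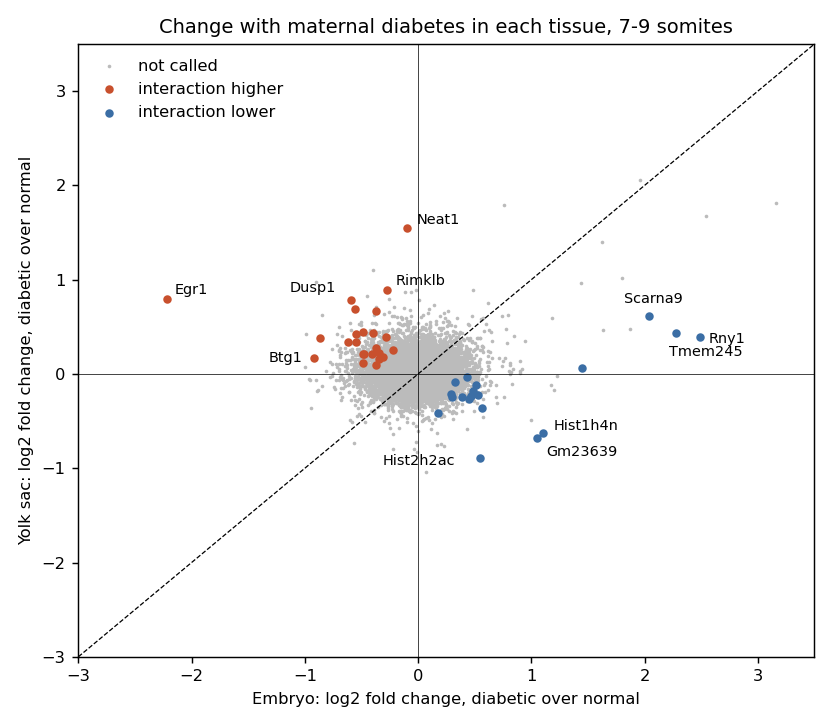
Log2 fold change from normal to diabetic pregnancies in embryos (horizontal axis) and in yolk sacs (vertical axis) at 7–9 somites, for the 9475 genes tested in both tissues. Colored points are 43 of the 47 called genes, 24 with a positive interaction above the dashed line of equal change and 19 with a negative one below it, and Egr1 at -2.22 and Rny1 at 2.49 in embryos lie farthest out among the called genes.

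Immediate early genes formed the clearest group with a positive interaction. Of the 12 genes of that list that were tested, 4 were called, all with a positive value (0.233% of all genes): Egr1, Fos, Dusp1 and Junb. Without conceptus N28M07E, whose libraries differ in sex, 2 of them were called, Egr1 and Dusp1. Unadjusted p lay under 0.05 for 8, all positive, against 10.1% of all genes tested. The median interaction of the 12 was 0.97, against 0.03 over all genes, with a median change of -0.40 in embryos and of 0.56 in yolk sacs. In embryos 2 of 9 tested members were called, both lowered, against 3.89% of all genes. In yolk sacs none of 10 was called, against 0.0194% of all genes.

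Egr1 (ENSMUSG00000038418, chr18:34859823-34864984), a zinc finger transcription factor induced within minutes by growth signals, had the largest interaction. In embryos its lowest, median and highest levels were 21, 38.7 and 261 normalized counts in normal pregnancies and 3.68, 13.7 and 37.5 in diabetic pregnancies. In yolk sacs they were 5.03, 40.0 and 171 in normal and 27.5, 52.2 and 419 in diabetic pregnancies. All 16 diabetic embryos were below the normal median and 11 of them below the lowest normal embryo, whereas in yolk sacs the groups overlapped broadly, with 3 diabetic libraries above the highest normal one. The yolk sac exceeded the embryo in 14 of 16 diabetic concepti and in 5 of 16 normal concepti. The interaction was 2.66 ± 0.53 (SE, adjusted p = 0.013, edgeR), composed of -2.22 ± 0.38 in embryos (adjusted p = 0.000381) and 0.79 ± 0.37 in yolk sacs (adjusted p = 0.431). Taken per litter, the yolk sac minus embryo difference ranged from -2.07 to 1.40 in normal and from -0.14 to 6.19 in diabetic litters, the last being the single conceptus of D28M24 (exact permutation test over 1716 splits of the litters, p = 0.0175).

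Fos (ENSMUSG00000021250, chr12:85473890-85477273), which pairs with Jun proteins in the AP-1 factor, was counted at low levels in embryos. Its lowest, median and highest embryo levels were 1.20, 7.99 and 47.1 in normal and 0, 4.35 and 16.3 in diabetic pregnancies, with 2 diabetic embryos at 0. The yolk sac values were 3.16, 9.62 and 96.6 in normal and 3.72, 19.8 and 212 in diabetic pregnancies. Both tissues overlapped between conditions, but every one of the 16 diabetic concepti had more Fos in its yolk sac, against 11 of 16 normal ones. The interaction was 1.96 ± 0.44 (adjusted p = 0.0287). Embryos alone had too few counts to pass the filter.

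Dusp1 (ENSMUSG00000024190, chr17:26505590-26562128), a phosphatase that switches off MAP kinases and is itself induced by them, had a more even level. In embryos it ranged from 27.1 to 88.4 with a median of 46.8 under normal and from 9.14 to 40.8 with a median of 33.5 under diabetic conditions, and all 16 diabetic embryos were below the normal median. In yolk sacs the ranges were 14.7 to 73.3 around 28.2 and 21.5 to 211 around 38.7, with 14 of 16 diabetic libraries above the normal median. Its interaction was 1.26 ± 0.25 (adjusted p = 0.013), and in normal concepti the yolk sac held less than the embryo (log2 difference -0.59), in diabetic concepti more (0.67). Both tissue differences were called, as were those of 74.6% of all genes in normal and 75.6% in diabetic concepti.

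Junb (ENSMUSG00000052837, chr8:84974484-84978718), another AP-1 subunit, was higher in yolk sac than in the embryo under both conditions. In embryos its lowest, median and highest levels were 14.1, 27.1 and 68.4 in normal and 8.94, 19 and 44.4 in diabetic pregnancies, and in yolk sacs 18.3, 47.4 and 125 in normal and 37, 60.4 and 173 in diabetic pregnancies. The groups overlapped in both tissues, with 13 of 16 diabetic embryos below and 13 of 16 diabetic yolk sacs above the normal median. The interaction was 0.98 ± 0.24 with an adjusted p of 0.0476, so that Junb and Ell, with 0.96, were the last genes inside the threshold. Just outside it lay Rps13-ps2 with -0.86 and Tshz1 with 0.69, both at an adjusted p of 0.0525. Among the uncalled members of the list, Jun had 1.27 ± 0.32 (adjusted p = 0.0578), Fosb 1.77 ± 0.50 (0.0657), Ier2 0.67 ± 0.18 (0.0598) and Zfp36 0.95 ± 0.30 (0.0839). The yolk sacs of D28M24C and D28M36D were highest for these genes, D28M24C for Egr1, Dusp1 and Junb and D28M36D for Fos. Time between death of the dam and lysis is not given in the labels, and its part in these values was not tested.

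**Figure D2:**
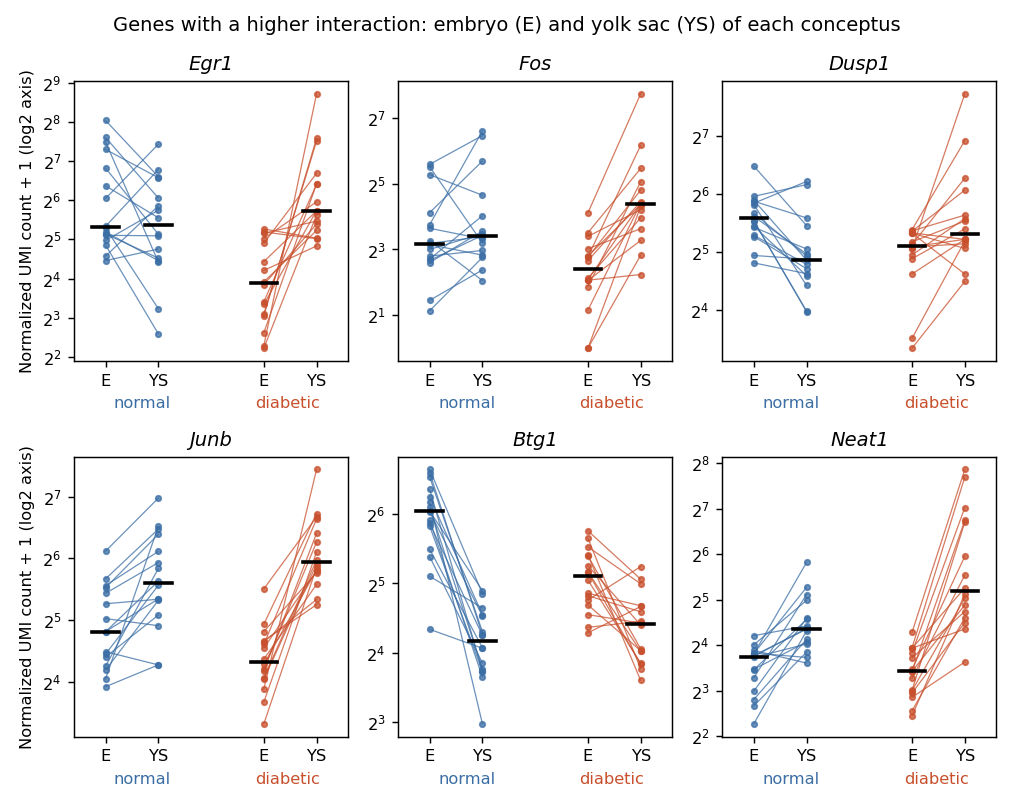
Normalized UMI counts plus 1 (log2 axis) of 6 genes with a positive interaction in the embryo (E) and yolk sac (YS) of each conceptus, joined by a line, with 16 concepti per condition and black bars at the medians. For Egr1 the medians were 38.7 and 40.0 in normal concepti and 13.7 and 52.2 in diabetic concepti.

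Btg1, an inhibitor of proliferation, had embryo levels of 19.2 to 99.5 with a median of 65.0 in normal and of 18.5 to 53.3 with a median of 33.5 in diabetic pregnancies, all 16 diabetic embryos below the normal median. Its yolk sac medians were 16.9 and 20.3. The interaction was 1.07 ± 0.25 (adjusted p = 0.0376), nearly all of it from the embryo, where the change was -0.92 ± 0.17 (adjusted p = 0.000847). Pnrc1, a nuclear receptor coactivator, was called with 1.05 ± 0.25, and its litter differences did not overlap between conditions, with -1.29 to -0.22 in normal and -0.12 to 1.67 in diabetic litters.

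Neat1, the long non-coding RNA that builds nuclear paraspeckles, had embryo medians of 12.4 in normal and 9.75 in diabetic pregnancies. In yolk sacs its lowest, median and highest levels were 11.2, 19.5 and 55.4 in normal and 11.4, 35.5 and 231 in diabetic pregnancies, and 6 diabetic yolk sacs exceeded the highest normal one. The interaction was 1.44 ± 0.32 (adjusted p = 0.0277), with -0.09 ± 0.19 in embryos and 1.55 ± 0.34 in yolk sacs, the latter with an adjusted p of 0.072. Rimklb, which makes the dipeptide N-acetylaspartylglutamate, had embryo medians of 141 and 115 and yolk sac medians of 10.3 and 15.2 in normal and diabetic pregnancies, with an interaction of 1.12 ± 0.22 (adjusted p = 0.013). Its change was -0.28 ± 0.08 in embryos (adjusted p = 0.0319) and 0.89 ± 0.21 in yolk sacs (adjusted p = 0.131). Its highest yolk sac level, 55.0, was that of D24M15A, the library with the highest sum of decidual markers (784, against at most 97.2 in normal yolk sacs), and their part in the result was not tested.

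Peli2, a ubiquitin ligase of Toll-like receptor signalling, had embryo medians of 139 and 104 and yolk sac medians of 28.5 and 34.3 in normal and diabetic pregnancies, and an interaction of 0.85 ± 0.16 (adjusted p = 0.0102). Its litter differences lay between -2.64 and -2.10 in normal and between -1.93 and -1.12 in diabetic litters, without overlap (exact permutation test, p = 0.000583, the smallest that 6 against 7 litters can give). Pdzrn3, a ubiquitin ligase of the Wnt pathway, showed the same with -1.53 to -0.54 against -0.38 to 0.40 (interaction 1.02 ± 0.21, adjusted p = 0.0145). Atf1, the CREB-related activator, fell in embryos from a median of 143 to 105 and stood at 146 and 165 in yolk sacs (interaction 0.63 ± 0.13, adjusted p = 0.0197). In all, litter differences did not overlap for 7 of the 27 positive genes and 4 of the 20 negative genes, against 0.423% of all genes tested. The others were Atp13a3, Rimklb and Uhrf1bp1l among the positive and Gm23639, Knop1, Nol12 and Oaz1 among the negative genes. As the genes were called on the same libraries, these litter values describe them and add no independent support.

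Further positive calls were Zfat, a zinc finger regulator of blood cells, with 1.63 ± 0.32 (adjusted p = 0.013), Ptprm, a receptor phosphatase of cell contacts, with 1.36 ± 0.32 (0.0405), and the endocytic receptor gene Lrp1 with 0.97 ± 0.20 (0.0145). Zfat stood at a median of 9.33 in normal and 4.84 in diabetic embryos and of 8.32 and 12.8 in yolk sacs, and its yolk sac level exceeded the embryo level in 16 of 16 diabetic and 8 of 16 normal concepti. Ell (transcription elongation), Proser1, Frmd4a, Ulk2 (autophagy), Zfand5, Ncoa2 (a steroid receptor coactivator), Ankrd28, Glud1 (glutamate dehydrogenase), Stx16 and Atp13a3 (a polyamine transporter) had values from 0.96 down to 0.48. Gm42640 and Gm44829, of the annotation class TEC, had 1.47 ± 0.31 and 1.34 ± 0.30.

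Small structured RNAs led the genes with a negative interaction. By annotation 66 such genes were tested, and 3 were called, all negative (0.173% of all genes): Rny1, Gm23639 and Scarna9. Unadjusted p lay under 0.05 for 21 with a negative value, against 7.99% of all genes, and for 3 with a positive value. The median interaction was -0.49. In embryos the median change was 1.05 over 58 tested genes, of which 38 were called as raised (5.2% of all genes). In yolk sacs it was 0.33 over 25 tested genes, of which 1 was called, the mitochondrial tRNA gene named above (0.0194% of all genes). These 2 medians are over different sets of genes. Of the 6071 genes so annotated, 66 passed the count filter. A gene high in diabetic embryos alone can pass it, so the filter favors genes raised there. This list was added after results of these data were known. Small structured RNA genes as a whole took 0.093% to 0.548% of the counts of diabetic embryos, with a median of 0.322%, and 0.092% to 0.186% in normal embryos, with a median of 0.126%. In yolk sacs the medians were 0.121% and 0.101%. How RNAs without a poly(A) tail came to be primed in these libraries was not tested.

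Rny1 (ENSMUSG00000065701), a Y RNA bound by the Ro60 protein, had the largest negative interaction. In embryos its lowest, median and highest levels were 12.5, 25.1 and 88.8 in normal and 15.1, 137 and 416 in diabetic pregnancies, and 14 of 16 diabetic embryos exceeded the highest normal embryo. In yolk sacs the same values were 8.25, 19.1 and 45.0 and 7.43, 17.8 and 91.0, so that the groups overlapped there, with 2 diabetic yolk sacs above and 1 below the normal range. The interaction was -2.12 ± 0.37 (adjusted p = 0.00632), from 2.49 ± 0.32 in embryos (adjusted p = 4.91e-06) and 0.39 ± 0.28 in yolk sacs (adjusted p = 0.639). The litter D28M36 did not follow, with a yolk sac minus embryo difference of -0.19 against -4.26 to -2.14 in the other 5 diabetic litters (exact permutation test over litters, p = 0.00932). Rny3, the other mouse Y RNA gene, was not called, with -1.61 ± 0.45 (adjusted p = 0.063). Its change was 3.16 in embryos (adjusted p = 2.43e-06) and, unlike that of Rny1, also large in yolk sacs, with 1.81, though not called there (adjusted p = 0.072). The embryo of D28M36D had the lowest level among diabetic embryos of Rny1, Scarna9 and Tmem245 alike, and the highest sum of erythroid markers (4340).

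Gm23639 (ENSMUSG00000092819), a small nucleolar RNA gene, had medians of 35.3 and 73.3 in normal and diabetic embryos and of 32.4 and 24.2 in yolk sacs. It was lower in the yolk sac in all 16 diabetic concepti and higher there in 9 of 16 normal concepti, and its interaction was -1.56 ± 0.26 (adjusted p = 0.00632). The change passed the test in embryos, with 1.05 ± 0.22 (adjusted p = 0.00278), and not in yolk sacs, with -0.68 ± 0.26 (adjusted p = 0.365). Scarna9, which guides modification of spliceosomal RNAs, had an embryo median of 37.1 in normal and 120 in diabetic pregnancies and yolk sac medians of 36 and 49.4. The medians of both tissues were higher in diabetic pregnancies, and 14 of 16 diabetic embryos exceeded the highest normal one at 53.7 (interaction -1.28 ± 0.27, adjusted p = 0.0197).

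Tmem245 (ENSMUSG00000055296, chr4:56866923-56947437, minus strand), a membrane protein gene, shared this pattern. Its embryo median was 209 in normal and 983 in diabetic pregnancies, where levels ran from 106 to 2600, and the highest normal embryo had 588. Of the diabetic embryos 13 of 16 exceeded that value. Yolk sac medians were 138 and 169. The interaction was -1.76 ± 0.32 (adjusted p = 0.00758). Introns of the gene hold the small nucleolar RNA gene Gm25053 (chr4:56897625-56897757) and the microRNA gene Mir32 (chr4:56895229-56895298) on the same strand, and whether their RNA enters the count of Tmem245 was not tested. The called non-coding gene 6720427I07Rik (interaction -0.92 ± 0.21, adjusted p = 0.0398) likewise spans small RNA genes, those of 3 let-7 microRNAs, Mirlet7d, Mirlet7f-1 and Mirlet7a-1. Such genes on the same strand are not particular to negative calls. They also lie within Ncoa2 and Ptprm, which had a positive interaction, and within Oaz1 and Zranb2, which had a negative one. How often genes in general span them was not counted.

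Replication-dependent histone genes were the other negative group. Of 27 tested, 4 were called, all negative (0.173% of all genes): Hist1h4n, Hist1h2an, Hist2h2ac and Hist1h2bc. In total 25 of 27 had a negative value, against 5338 of all 11577 genes, 12 of them at an unadjusted p under 0.05, against 7.99%, and the median was -0.60. In embryos 19 of the 27 were called as raised, against 5.2% of all genes, with a median change of 1.07. The list held 68 genes, of which these 27 passed the count filter. A gene high in diabetic embryos alone can pass it, so the filter favors genes raised there and negative interactions. Values of some members were poorly determined, as -0.09 ± 11.11 for Hist1h3b. In yolk sacs 8 of the 27 had enough counts to be tested, none was called and their median change was -0.09. Histone genes are near-identical copies, so reads may be shared among them and values of single genes are uncertain.

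Hist1h4n (ENSMUSG00000069305), an H4 gene, had lowest, median and highest embryo levels of 7.07, 16.7 and 56.3 in normal and of 17, 39.9 and 73.2 in diabetic pregnancies. In yolk sacs they were 1.64, 13.8 and 20.1 and 2.03, 7.36 and 24.6. All 16 diabetic embryos were above the normal median and 14 of 16 diabetic yolk sacs below theirs, and the interaction was -1.80 ± 0.34 (adjusted p = 0.0102). Hist1h2bc (ENSMUSG00000018102, chr13:23684199-23692908), an H2B gene, was unlike it in being higher in the yolk sac. Its embryo median was 10.8 in normal and 29.8 in diabetic pregnancies, with 11 of 16 diabetic embryos above the highest normal one at 22.5, and its yolk sac medians of 49.3 and 47.8 hardly differed (interaction -1.32 ± 0.28, adjusted p = 0.0197). Hist2h2ac, an H2A gene, had yolk sac medians of 13.2 and 5.86, with 8 of 16 diabetic yolk sacs below the lowest normal one, and embryo medians of 12.5 and 17.7 (interaction -1.44 ± 0.29, adjusted p = 0.0145). Neither tissue passed the test alone, with -0.89 ± 0.23 in yolk sacs (adjusted p = 0.172) and 0.54 ± 0.23 in embryos (adjusted p = 0.115). Hist1h2an, with embryo medians of 7.24 and 16.7 and yolk sac medians of 4.21 and 2.89, had -1.76 ± 0.38 (0.0239).

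**Figure D3:**
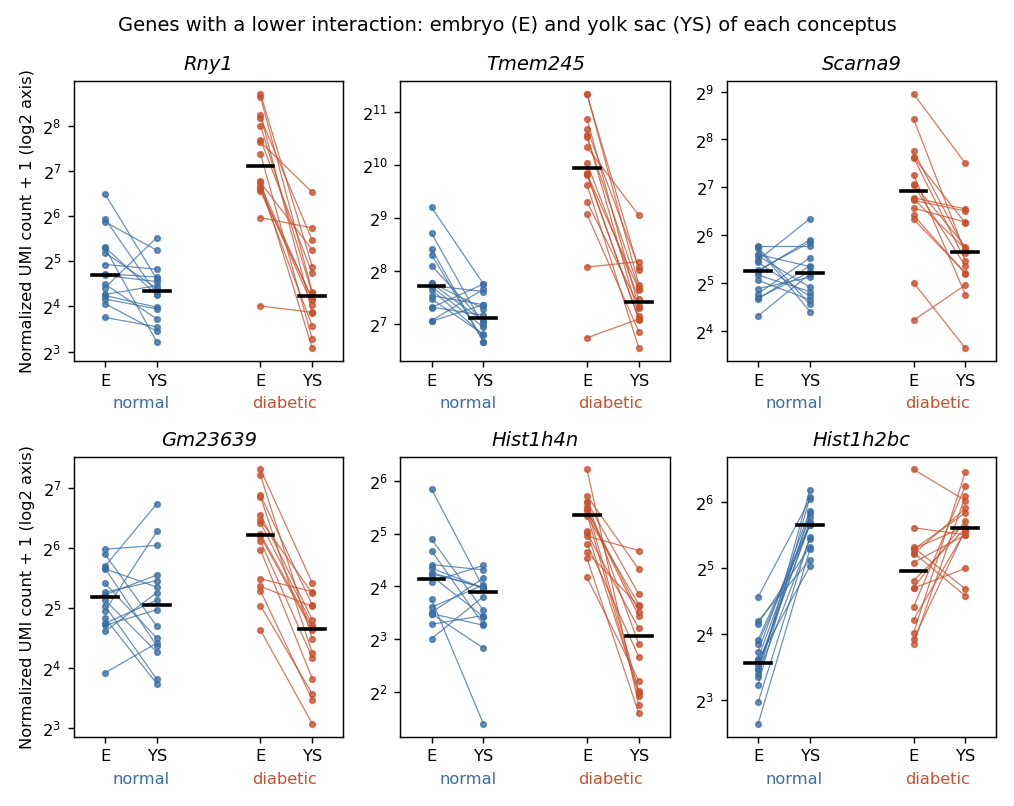
Normalized UMI counts plus 1 (log2 axis) of 6 genes with a negative interaction in the embryo (E) and yolk sac (YS) of each conceptus, joined by a line, with 16 concepti per condition and black bars at the medians. For Rny1 the medians were 25.1 and 19.1 in normal concepti and 137 and 17.8 in diabetic concepti, and 14 diabetic embryos lie above the highest normal embryo.

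Lsm10, a subunit of the U7 particle that cuts histone messages at the stem-loop, had embryo medians of 37.6 and 56.2 and yolk sac medians of 58.5 and 58.2 (interaction -0.68 ± 0.16, adjusted p = 0.0472). Fcf1, needed for processing of ribosomal RNA, was called with -0.71 ± 0.14 (adjusted p = 0.0114), and Nol12, a nucleolar RNA-binding protein, with -0.63 ± 0.13 (0.0163). All 16 diabetic embryos were above the normal median for Nol12, 10 of them above the highest normal embryo, and its litter differences of 0.29 to 0.96 in normal and -0.53 to 0.13 in diabetic litters did not overlap. Prmt1, the main arginine methyltransferase of RNA-binding proteins, had medians of 1030 and 1480 in embryos and of 971 and 736 in yolk sacs (interaction -0.73 ± 0.15, adjusted p = 0.0145). The splicing genes Dnajc8 and Zranb2, the nucleolar Knop1, Gins3 of the replicative helicase, Oaz1 (ornithine decarboxylase antizyme) and Cycs (cytochrome c) were called with values from -0.66 to -0.41. Rpl31-ps8, a pseudogene whose reads may stem from its parent gene, had -0.80 ± 0.17.

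Per litter, the within-conceptus differences kept the direction of the interaction for all 47 genes. The genes were called on these same libraries, so the litter values describe them and add no independent support. All 6 diabetic litters lay on the called side of the normal median for Egr1, Dusp1, Peli2, Atf1, Hist1h4n, Gm23639 and Nol12, and 5 of 6 for Rny1 and Tmem245, where D28M36 was the exception.

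**Figure D4:**
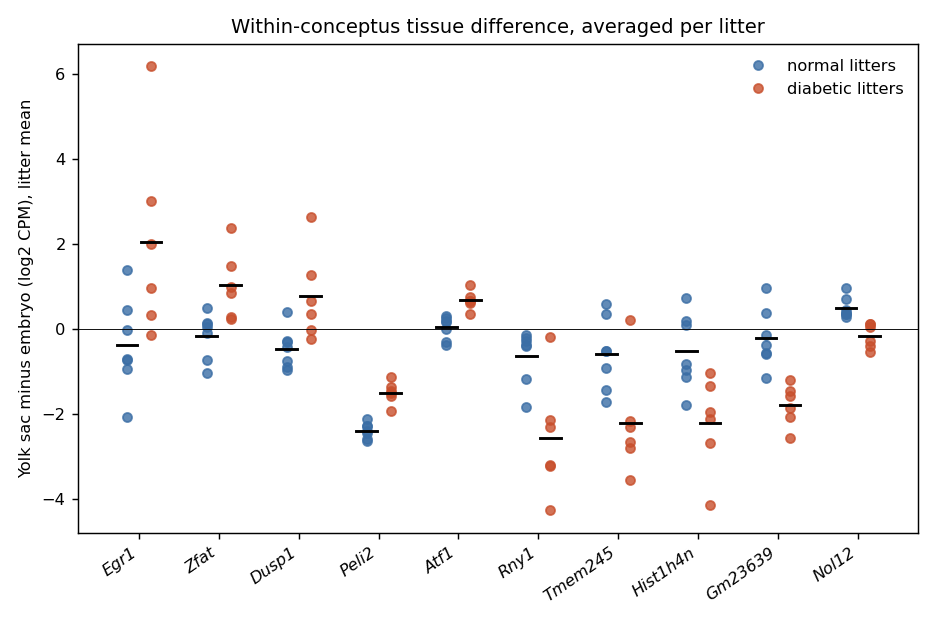
Mean per litter of the log2 CPM in yolk sac minus that in the embryo of the same conceptus (vertical axis) for 5 genes with a positive and 5 with a negative interaction, with 7 normal and 6 diabetic litters as points and black bars at their means. Diabetic litters lie higher for the first 5 genes and lower for the last 5, without overlap for Peli2, Atf1, Gm23639 and Nol12.

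Concepti of the earlier stage, with 5 or 6 somite pairs, gave the same measure in other libraries, although 10 litters had concepti at both stages. No gene was called among 11677 tested, and 1052 had an unadjusted p under 0.05 (9.01%). Of the 27 positive genes 19 had a positive value there too, with a median of 0.11 against 0.97 at 7–9 somites, and 4, Ankrd28, Junb, Neat1 and Ulk2, had an unadjusted p under 0.05 with it, against 5.13% of all genes. Of the 20 negative genes 17 were negative, with a median of -0.32 against -0.76, and 5, Dnajc8, Gm23639, Hist1h2bc, Hist1h4n and Zranb2, had an unadjusted p under 0.05, against 3.88%. Egr1 stood at 0.70 ± 0.53, Fos at -0.80 ± 0.54, Junb at 0.74 ± 0.28, Rny1 at -0.70 ± 0.38 and Hist1h4n at -0.97 ± 0.36. The immediate early list had a median of -0.08 at the earlier stage, against 0.97 at the later one. The histone list had -0.21 against -0.60, and the small RNA list -0.52 against -0.49. The difference between stages was tested in a fit over both and was called for none of 12183 genes by edgeR, with 1427 at an unadjusted p under 0.05 (11.7%), so the stages are not shown to differ for any named gene. Of the called genes 19 of 27 and 11 of 20 had an unadjusted p under 0.05 for it, which the choice of genes at the later stage favors.

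**Figure D5:**
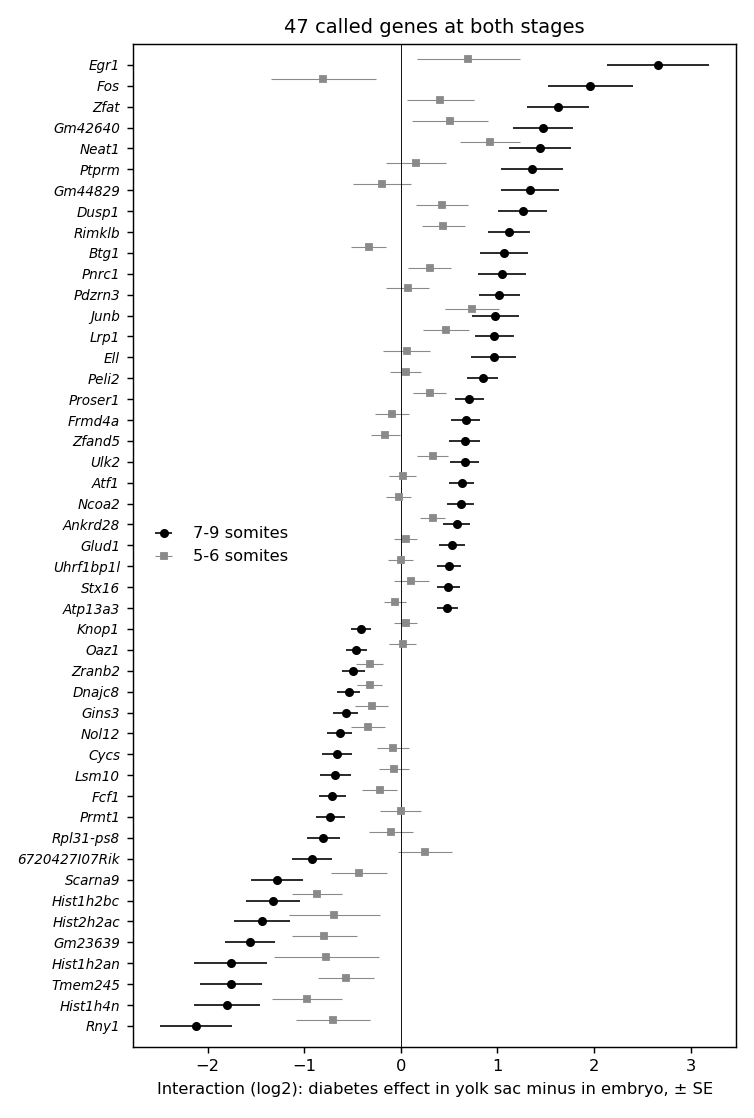
Interaction (log2, diabetes effect in yolk sac minus that in the embryo, with SE) of the 47 called genes at 7–9 somites (black circles) and at 5–6 somites (grey squares). The values at 5–6 somites scatter closer to 0, with 19 of 27 and 17 of 20 on the same side.

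Markers of other cell types were examined beside these results. All 10 visceral endoderm markers had a negative interaction and none was called (median -0.19). Their median change was 0.52 in embryos, over the 8 tested there, and 0.06 in yolk sacs, over all 10. All 5 primitive erythroid markers were negative and none was called (median -0.62). Their median change was 1.23 in embryos, over the 3 tested there, and -0.03 in yolk sacs, over all 5. Summed erythroid markers ran from 34.7 to 4340 normalized counts in diabetic and from 18.1 to 1480 in normal embryos. The 6 tested markers of yolk sac mesoderm and mesothelium had a median of 0.36, with -0.18 in embryos and 0.26 in yolk sacs, and the 8 endothelial markers one of -0.06. In each of these lists 2 members had a positive value at an unadjusted p under 0.05, Ahnak (0.49, adjusted p = 0.116) and Flt1 (0.57, adjusted p = 0.0988) having the lowest p, and none was called. Their part in the positive genes was not tested. In whole tissues a change in the number of cells of a type and in RNA per cell cannot be told apart, and the part of yolk sac tissue or blood left on embryos in the results was not tested.

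Pathways tied to nutrition gave no call in the interaction. Over all 11577 genes 6239 had a positive and 5338 a negative value, and 10.1% and 7.99% had an unadjusted p under 0.05 in these directions, against which the counts that follow are to be read. The 12 tested glucose and fatty acid transporters of the study had values from -0.59 ± 0.54 for Slc2a2, the transporter of visceral endoderm, to 1.18 ± 0.65 for Slc2a4, with Slc2a1 at 0.16 ± 0.11 and Slc2a3 at -0.10 ± 0.11. Of the 12, 8 were negative, 2 of them with an unadjusted p under 0.05, led by the carnitine palmitoyltransferase gene Cpt2 (-0.35 ± 0.14, adjusted p = 0.18). All 13 genes of the IGF and insulin system had a positive value, 7 with an unadjusted p under 0.05, among them the binding protein gene Igfbp2 (0.48 ± 0.16), the receptor genes Insr (0.49 ± 0.21) and Igf1r (0.41 ± 0.18) and the substrate genes Irs1 (0.52 ± 0.20) and Irs2 (0.45 ± 0.16), and none was called in the interaction. Of 15 collagen and laminin genes 14 were positive, 6 with an unadjusted p under 0.05, led by Col5a2 (0.57 ± 0.17). In cholesterol synthesis 14 of 17 were positive, 5 with an unadjusted p under 0.05. Of 85 nuclear genes of the respiratory chain 62 were negative, 20 with an unadjusted p under 0.05, led by Cox7a2l with -0.55. The adjusted p of the leading genes was 0.0945 for Igfbp2, 0.0813 for Col5a2 and 0.0726 for Cox7a2l. Of 15 heart tube genes 13 had a negative value, with 1 in each direction at an unadjusted p under 0.05, and of 13 amino acid transporters 10 had a positive value, 3 with an unadjusted p under 0.05. Of 15 antioxidant and glutathione genes 12 were negative, 5 with an unadjusted p under 0.05, led by Prdx2 (-0.44, adjusted p = 0.0695). No list other than the immediate early, histone and small RNA genes had a call in the interaction. Tests of embryos alone did call members of these lists. Called as raised there were 6 of 15 glycolysis, 24 of 84 nuclear respiratory chain and 5 of 15 antioxidant genes, against 5.2% of all genes. In cholesterol synthesis 4 of 17 were called as lowered, against 3.89%. None of these 4 lists had calls in the other direction or in yolk sacs. None of 10 tested transporters of the study was called in embryos.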

How the data were processed

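RNA was measured in the embryo and visceral yolk sac of single concepti. Per the labels, the authors made QuantSeq 3′ libraries with unique molecular identifiers, and the submitters' processing notes name STAR, HTSeq and mm10, with versions, annotation and the strand setting of counting not given in the sources used here. The deposited values are raw counts of molecules for 47643 genes, with no normalization. Symbols missing there were taken from GENCODE M21 for 25646 of 26051 genes. Groups follow the labels' tissue, condition and somite number.

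Counts of the 64 libraries were filtered with filterByExpr (minimum count 10) and tested with edgeR 4.0.16 (TMM, glmQLFit, glmQLFTest) under R 4.3.3, with tissue and its interaction with maternal diabetes beside a block for the conceptus. An embryo and its yolk sac come from the same conceptus per the labels, which pairs them (the sexes of N28M07E speak against it there), and the median correlation of their deviations was 0.0441 (-0.338 to 0.379). Each tissue alone was filtered and tested likewise, with maternal diabetes as the only term and no term for litter. The code was tested on simulated data. Levels used DESeq2 1.42.0 size factors. Litter tests were two-sided exact permutations of litter means of log2 CPM differences (prior count 2). The members, lists and tests were chosen with earlier results of these data known. The rule for named genes took up to 12 calls per direction with the largest interaction and a mean of at least 10, up to 4 per class of tissue calls, called members of lists or else the member with the lowest p, and the transporters of the study. Other genes were named after their values were seen. Alternatives were other normalization, filters, covariates, blocks, DESeq2, limma 3.58.1 and leaving out each litter. The repeat libraries entered no test but an alternative.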

Additional observations from a re-analysis of the deposited data

Results flagged for a closer look

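The effect of maternal diabetes differed between tissues for 47 genes, higher in the yolk sac for 27 and lower for 20, by the interaction term of edgeR's test. Repeat libraries of the conceptus D24M15G entered only the alternative that adds repeat libraries to their originals. The originals are among the libraries tested, so the repeats measure the same conceptus again and are no further sample. The original embryo library is that noted above for Xist counts under a male label and for its visceral endoderm markers. In the repeat embryo library Rny1 had 95.5 CPM (counts scaled to the library total), against 82 in the original and at most 39.7 in normal embryos. Tmem245 had 571 CPM there, against 521 in the original and at most 277 in normal embryos, and Scarna9 had 71.2, against 66.7 and at most 25.3. In the repeat yolk sac library Rny1 had 5.08 CPM, against 4.32 in the original.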

How the results depend on the processing

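All 47 called genes kept their direction in each of the 27 alternatives, apart from 2 that were not tested with a filter at a mean count of 10. Numbers of calls varied more. Positive and negative calls were 372 and 177 with no filter on low counts, 52 and 51 with somite number and sex by tissue, 10 and 9 with the title number by tissue, 0 and 0 with title number 28 only, 10 and 12 without conceptus N28M07E, 8 and 8 without N28M07E and D24M15G (chosen after seeing the data), 0 and 0 with counts summed per litter, 1 and 4 with litter as random block, 182 and 154 with DESeq2, and 49 and 36 with both stages in 1 fit. Leaving out 1 litter at a time gave 0 to 282 positive and 0 to 230 negative calls. Beyond D24M15 and N28M07 (none) and D28M31 (512), totals moved by over 1.5 times without D28M24 (22), N24M21 (30), N28M03 (97), N28M06 (14) and N28M30 (158). Without the block that pairs the tissues of a conceptus 22 and 23 genes were called, 29 of the 47 among them. With title number 28 only, Des stood at -0.33, Slc2a10 at 0.08 and Uty at -0.04, each with the sign turned, and leaving out a litter moved Des between -0.25 and 0.94 and Cpt1c between -0.40 and 0.01. These 4 were not called in any setting named here. The causes were not tested. Title number and condition are partly tied: 7 of 8 diabetic concepti outside number 28 are from D24M15.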
